A study of Mus musculus with 6 samples.

Results

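miR-132 and miR-212 are made from a pair of neighbouring hairpins, each of which can release a 5p and a 3p mature strand. The 4 mature miRNAs (mmu-miR-132-3p, mmu-miR-132-5p, mmu-miR-212-3p and mmu-miR-212-5p) were taken by name, either arm, from the 1247 mouse miRNAs on the array. Each was read by 2 probes with 20 spots per probe, so that 160 spots on every array belonged to them.

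The series measured miRNA in 3T3-L1, a line of mouse embryonic fibroblasts that turns into fat cells in culture, on day 8 of differentiation. The 4 control samples received no cytokine, and the 2 IL-6 samples received interleukin-6, an inflammatory cytokine, at 1 ng/ml from the start of differentiation with new medium every 24 h. Both groups shared everything else. After confluence and a further 48 h of growth, they spent 3 days in isobutylmethylxanthine (IBMX) at 0.5 mmol/l, dexamethasone at 1 µmol/l, insulin at 2 µmol/l and rosiglitazone at 2 µmol/l. A further 3 days with insulin and 2 days without additions followed, all in 10% serum. IBMX had therefore been withdrawn well before the cells were taken. The samples come from 1 cell line, and the labels do not say whether samples of a group were separate cultures, so that the spread behind each p-value may be only technical.

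The locus is known for its answer to cyclic AMP. Cyclic AMP activates protein kinase A, which phosphorylates the transcription factor CREB, and CREB bound at this locus drives a transcript that carries both hairpins. IBMX blocks the phosphodiesterases that break cyclic AMP down, and is part of the usual adipogenic cocktail for that reason. miR-132 is best known from neurons, where activity induces it.

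In the RefSeq annotation of GRCm38.p6 both hairpins lie on the plus strand of chromosome 11, Mir212 at 75173388 to 75173478 and Mir132 at 75173682 to 75173747, with 203 bases between them. RefSeq lists 0 other genes over this span. The nearest gene on one side is Hic1 (75161377 to 75170255), which encodes a transcriptional repressor, 3132 bases away, and on the other side Ovca2 (75175943 to 75178808), 2195 bases away. All 4 members matched the RefSeq table. The hairpins are shown because one transcript holds both, with the mature arms in capitals.
Mir212: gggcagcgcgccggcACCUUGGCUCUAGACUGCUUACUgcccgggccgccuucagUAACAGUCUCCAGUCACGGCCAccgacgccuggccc
Mir132: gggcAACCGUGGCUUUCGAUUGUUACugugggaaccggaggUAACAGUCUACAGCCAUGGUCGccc

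The mature strands are shown with the seed, bases 2 to 8, in capitals, since the seed groups miRNAs by the targets they can pair with.
miR-132-3p: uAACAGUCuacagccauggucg
miR-212-3p: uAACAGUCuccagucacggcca
miR-132-5p: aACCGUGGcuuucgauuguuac
miR-212-5p: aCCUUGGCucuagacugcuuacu
Both 3p strands carry the seed AACAGUC, and among the 1679 mature mouse names in the table they were the only 2 that do. They are identical over their first 9 bases and at 17 of 22 positions. Counted from the 5′ end, with the base of miR-132-3p first, they differ by A10C, C14U, U17C, U20C and G22A. The seeds of the 5p strands, ACCGUGG and CCUUGGC, differ from each other, and each belonged to 1 name in the table.

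The array probes pair with the 3′ part of a miRNA, where the 3p strands differ. They are shown 5′ to 3′ as the array lists them, with the base that the longer probe of a pair adds in capitals.
miR-132-3p, short probe: cgaccatggctgtag
miR-132-3p, long probe: cgaccatggctgtagA
miR-212-3p, short probe: tggccgtgactgg
miR-212-3p, long probe: tggccgtgactggA
Those of miR-132-3p were 15 and 16 bases long and those of miR-212-3p 13 and 14. The longer ones pair with bases 7 to 22 of miR-132-3p (75173729 to 75173744) and bases 9 to 22 of miR-212-3p (75173451 to 75173464). Against the other 3p strand, each of the 4 probes had 5 mismatches. The full pairing site of these probes was found in 0 other mature mouse miRNAs of the table. Binding to RNA other than mature miRNAs was not tested. G and C made up 69.2% and 64.3% of the short and long probes of miR-212-3p, against 60% and 56.25% for miR-132-3p. Brightness differs between probes for the same amount of RNA, so the levels of these miRNAs were not set against each other.

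Each sample was 1 array read in 1 colour, and the number of arrays limits the precision. All 6 arrays lay on 1 slide, the controls in row 1 and the IL-6 samples in row 2, so that row and treatment cannot be told apart. Between 268 and 313 miRNAs were detected per array, meaning that at least 1 probe had a share of 0.5 or more of its spots well above background. The labelled cell type was checked against miRNAs of fat cells and fibroblasts, of which 9 of 10 array entries were detected on all 6 arrays, among them miR-143-3p, miR-103-3p and miR-199a-3p. These are not restricted to fat cells. With IL-6, 8 of these 9 were below 0, beside 54.5% of all 299 tested miRNAs. Of the 9, 3 were lower at an unadjusted p of 0.05, beside 12% of all tested, a share that was 0 without scaling. Their median difference was -0.11 (log2), beside -0.02 over all tested, with miR-143-3p at -0.39 ± 0.08 SE (limma adjusted p = 0.0845). The part of this shift in the result for miR-212-3p was not tested. Of the 12 neural entries 11 were detected on no array, as were all 9 muscle, 7 blood, 2 liver and 10 epithelial entries. The liver entries were of miR-122 alone, and the epithelial ones of the miR-200 family with miR-141 and miR-429. Other miRNAs of epithelia or liver were tested, miR-205-5p at 6.22, miR-192-5p at 4.50 and miR-194-5p at 4.60 (log2, control mean). The exception among these neural entries was miR-128-3p, at 4.24 ± 0.06 (log2, SD, n = 4) in controls and 4.34 ± 0.18 (SD, n = 2) with IL-6. The neural list names miR-219a, which the array calls miR-219, so that its entries were not counted. Of these, miR-219-5p was tested, with a control mean of 4.99 and a difference of -0.19 ± 0.10 SE.

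Of the 4 members, miR-212-3p alone was detected, and it was detected on every array. Every one of its spots that was not flagged as uneven or outlying was well above background, 34 to 40 spots per array. For miR-132-3p this held for 1 of 224 spots, and for the 5p strands for 0 of 227 spots each. The array thus gave a level for 1 strand of the locus, and a bound near background for the other 3.

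The 13-base probe of miR-212-3p gave a mean background-subtracted signal of 72.5, 79.7, 54.0 and 75.1 intensity units on controls 1 to 4, while IL-6 array 1 gave 77.3 and IL-6 array 2 gave 66.7. For the 14-base probe controls 1 to 4 read 263, 297, 190 and 267 units, IL-6 array 1 read 278 and IL-6 array 2 read 244. Before any scaling the groups overlapped on both probes, and control 3 was the lowest array. Control 3 was also the dimmest array as a whole. The 75th percentile of the probes detected everywhere, which was used for scaling, lay between 248 and 396 units on the controls and between 369 and 440 on the IL-6 arrays. Between 14 and 20 spots stood behind each of these means, with a coefficient of variation over spots of 1.92% to 11.1%. The standard error from spots alone was at most 2.48% of the mean.

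**Figure D1:**
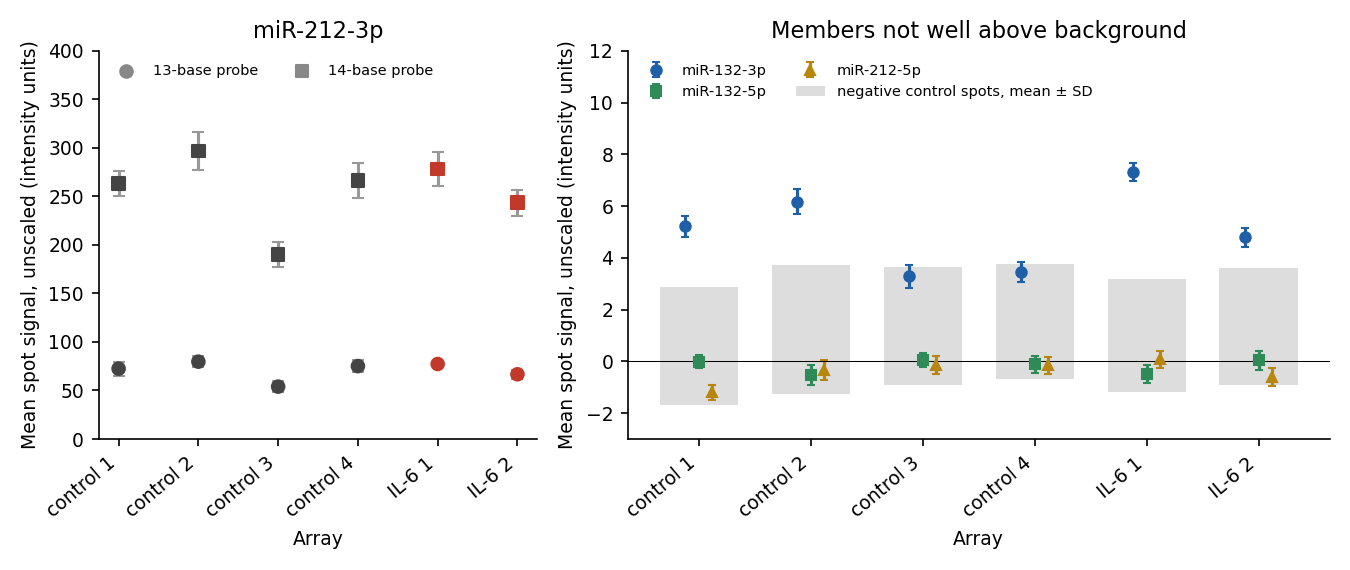
Mean spot signal without scaling (intensity units) on each of the 6 arrays, with both probes of miR-212-3p on the left (bars: SD over spots; dark, control; red, IL-6) and the other 3 members on the right (bars: SE over spots; grey: mean ± SD of negative control spots). miR-212-3p lies far above background on every array with overlapping groups, miR-132-3p lies at 3.29 to 7.32 units, and both 5p strands lie at or below 0.0795 units.

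miR-132-3p, which shares the seed, gave 5.21, 6.16, 3.29 and 3.45 units on controls 1 to 4, against 7.32 on IL-6 array 1 and 4.79 on IL-6 array 2. The negative control spots averaged between 0.590 and 1.54 units per array, with an SD of 2.17 to 2.48 units over spots. The mean of miR-132-3p thus lay above that of the negative controls on all 6 arrays, and within 1 SD of single negative control spots on controls 3 and 4. By the scanner software's weaker criterion, a signal positive and significant against background, 79.5% of its spots passed, against 1653 of the 5897 negative control spots. Its share ran from 63.9% to 89.7% over the controls, with 97.2% for IL-6 array 1 and 76.3% for IL-6 array 2. Of the 930 miRNAs that were detected on no array, 22 had a higher share, and the median was 8.93%.

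After scaling, controls 1 to 4 measured 5.29, 5.59, 4.76 and 3.70 units of miR-132-3p, IL-6 array 1 measured 5.91 and IL-6 array 2 measured 4.63. All of these lie below the floor of 6.25 units, which is the highest of the lowest detected signals of the 6 arrays. The groups overlapped, with 4.83 ± 0.827 units (SD, n = 4) in controls and 5.27 ± 0.901 units (SD, n = 2) with IL-6. No fold is given for a miRNA that is not well above background in either group.

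The 5p strands, released from the other side of each hairpin, were no brighter than the negative control spots. The mean signal of miR-132-5p lay between -0.530 and 0.0422 units and that of miR-212-5p between -1.20 and 0.0795 units, below the negative control mean of the same array in every case. Positive and significant spots made up 9.25% and 9.69%, close to the median of the undetected miRNAs. A difference between groups in either strand was not detectable at this signal.

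The other hairpins on the array give the setting for this split between strands. Of the 417 hairpins with both arms on the array, 28 had both arms detected on all arrays, 105 had 1 arm detected on all arrays and the other on none, and 252 had neither detected on any. miR-212 belonged to the 105 and miR-132 to the 252. Between close neighbours, of the 82 pairs of adjacent hairpins on the same strand within 1000 bases, 28 were both detected on all arrays, 42 were both detected on none, and 10, Mir212 and Mir132 among them, had a strand of one hairpin on all arrays and no strand of the other on any. These counts describe the array and were not tested.

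With IL-6, miR-212-3p was lower after scaling, by 15.5%, but did not pass the test. Its scaled level was 7.43, 7.41, 7.46 and 7.47 (log2) on controls 1 to 4, against 7.17 on IL-6 array 1 and 7.23 on IL-6 array 2. Both IL-6 arrays lay below all 4 controls, and the gap of 0.18 between the groups was wider than the 0.06 spanned by the controls. Controls averaged 7.44 ± 0.03 (SD, n = 4) and IL-6 arrays 7.20 ± 0.04 (SD, n = 2), a log2 difference of -0.24 ± 0.06 SE. The 95% interval ran from -0.38 to -0.10, with an unadjusted limma p of 0.00539 and a limma adjusted p of 0.0845 over 299 tested miRNAs. An exact two-sided permutation test over the 15 splits gave p = 0.0667, the smallest that 4 against 2 arrays allow.

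**Figure D2:**
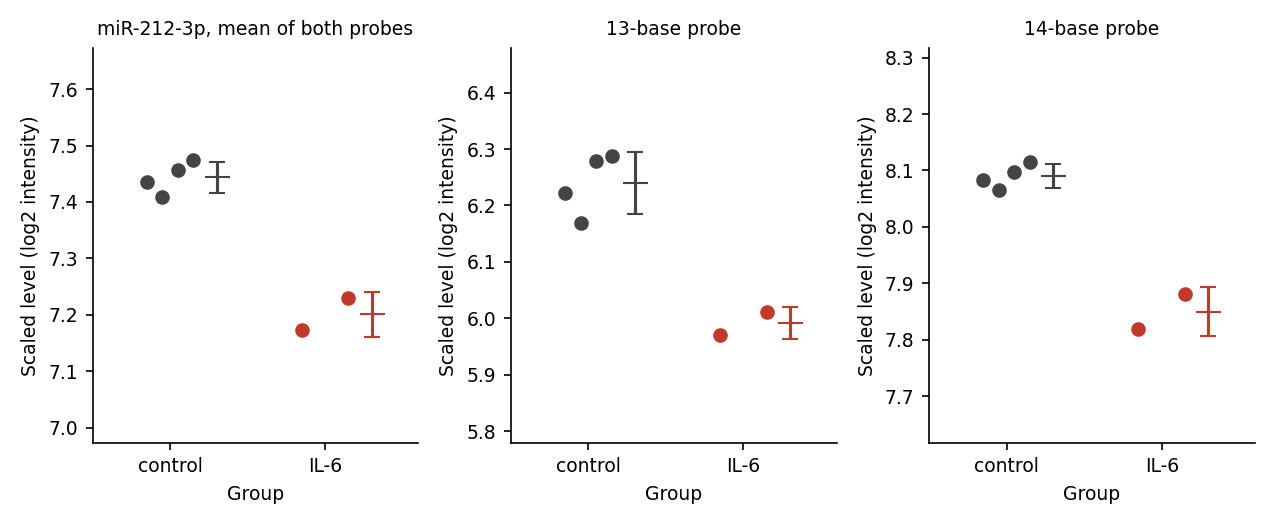
Scaled level of miR-212-3p (log2 intensity, axes not starting at 0 and of equal height) by group, as the mean of both probes and for each probe, with a point per array and the group mean ± SD beside it. On each panel both IL-6 arrays lie below all 4 controls.

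Both probes gave the same size of difference. On the 13-base probe the level was 6.24 ± 0.06 (log2, SD, n = 4) in controls and 5.99 ± 0.03 (SD, n = 2) with IL-6, a difference of -0.25. On the 14-base probe it was 8.09 ± 0.02 and 7.85 ± 0.04, a difference of -0.24. They read the same RNA and are not replicates. Slide columns 3 and 4 held both groups, and within them miR-212-3p differed by -0.28 and -0.24. Any pairing of these arrays gives a negative value, since both IL-6 arrays lay below every control, so this is no further check.

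Separate groups were frequent across the array. Groups did not overlap for 34.8% of the 299 tested miRNAs, and 21.7% lay lower on each IL-6 array than on any control, as miR-212-3p did. At an unadjusted p under 0.05, 22.7% passed in either direction and 12% were lower, and 54.5% of all differences were below 0. These shares moved with the scaling, from 32 higher and 36 lower at that unadjusted threshold to 50 higher and 0 lower without scaling. At the adjusted threshold of 0.05, 0.334% were called, a single miRNA that was higher with IL-6 and is no member. miR-212-3p ranked 19 by p and 81 by size of difference. Its SD of 0.03 over the controls compares with a median of 0.13 over all tested miRNAs. The quartiles of all differences were -0.15 and 0.12, with a median of -0.02.

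**Figure D3:**
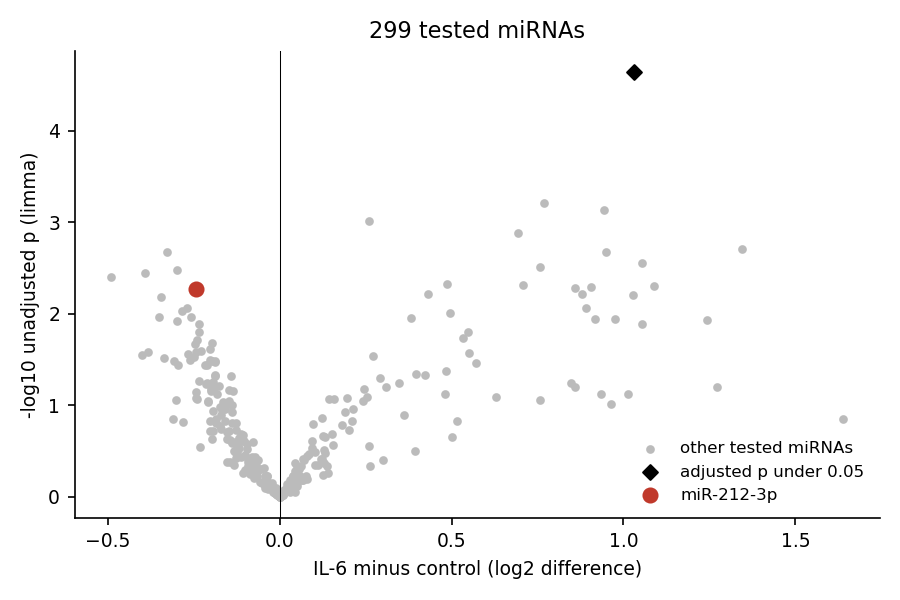
IL-6 minus control (log2 difference, horizontal) against -log10 of the unadjusted limma p (vertical) for 299 tested miRNAs, a point each. miR-212-3p (red, -0.24) lies within the left arm among other miRNAs of similar size, and the single miRNA past the adjusted threshold (black) lies on the right.

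The direction of miR-212-3p rested on scaling to the other miRNAs. Without scaling its difference was 0.05 ± 0.27 SE (limma adjusted p = 0.907), and with each array set to the spike-in RNA added at hybridisation it was 0.06 ± 0.28 SE (adjusted p = 0.898). With the spike-in RNA added before labelling it was -0.03 ± 0.31 SE. These settings moved the median of all tested miRNAs to 0.27, 0.28 and 0.18. Relative to that median, miR-212-3p differed by -0.22, -0.22 and -0.21, against -0.23 as reported, and by -0.25 to -0.15 over all 20 alternatives. Scaling by a factor per array moves all log2 differences alike, apart from values at the floor. The likeness of the relative values under such scalings was therefore fixed in advance and is no support. With the scanner's total gene signal or the series table as the source, the difference was -0.15 (limma adjusted p = 0.257 and 0.279), with unadjusted p of 0.0634 and 0.0699. The lower level of miR-212-3p is thus a level relative to the other detected miRNAs.

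**Figure D4:**
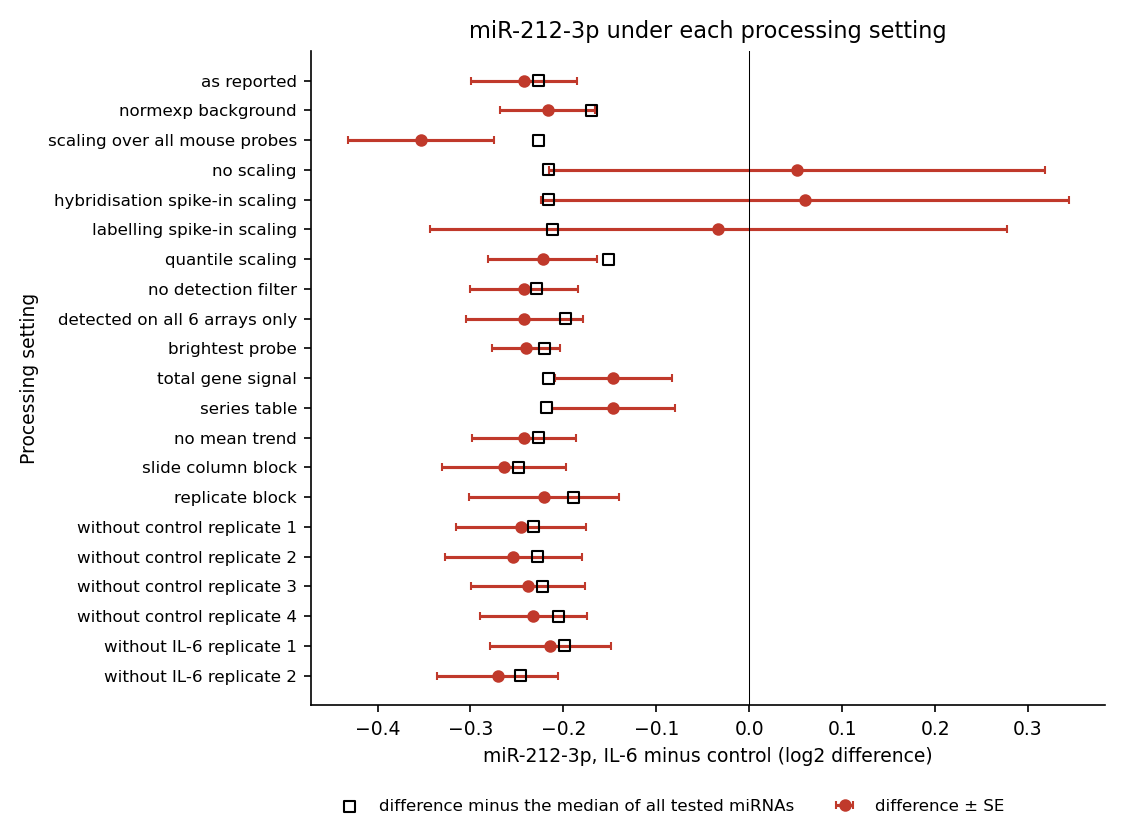
Difference of miR-212-3p (log2, red, ± SE) and the same minus the median of all tested miRNAs (open squares) as reported and under 20 other processing settings. The red points cross 0 without scaling and with hybridisation spike-in scaling, and the open squares stay between -0.25 and -0.15. Scaling by a factor per array hardly moves the open squares, by construction.

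The tested miRNAs with a profile over the 6 arrays closest to that of miR-212-3p were miR-30a-3p, miR-378d and miR-17-3p. Likeness was the root mean square distance between profiles centred on their own means, and it was 0.04 (log2) for each of them against a median of 0.16 over 298 miRNAs. miR-30a-3p is the second strand of miR-30a and measured 4.91, 4.95, 5.01 and 4.95 on the controls and 4.63 and 4.74 with IL-6, a difference of -0.27 ± 0.07 SE. miR-378d, a relative of the miR-378 of the Ppargc1b gene, differed by -0.23 ± 0.07 SE. miR-17-3p, the second strand of miR-17, differed by -0.25 ± 0.08 SE. All 3 were lower on each IL-6 array than on any control, as were 21.7% of all tested miRNAs. None of the 3 passed the test (limma adjusted p between 0.104 and 0.152). Picked for likeness over these same arrays, they share the direction and separation of miR-212-3p by construction, which is no support.

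**Figure D5:**
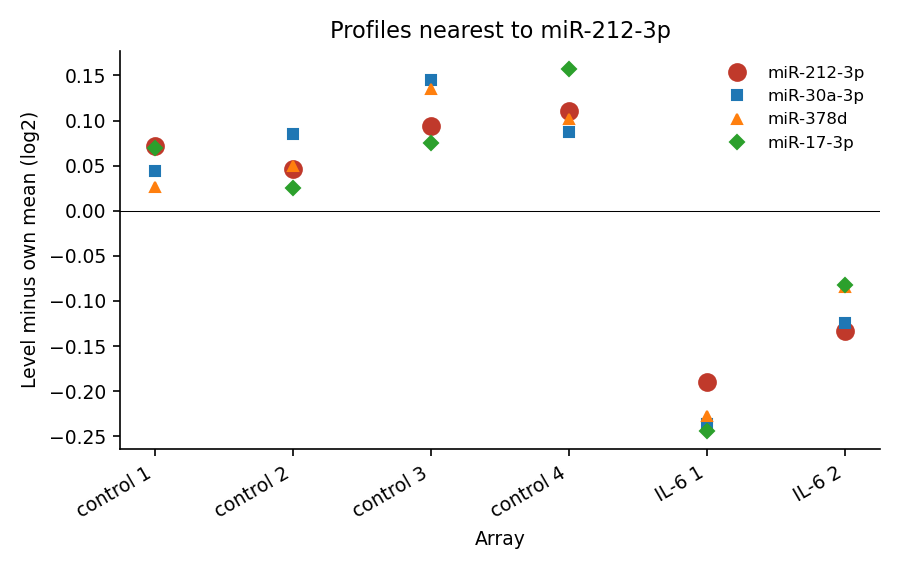
Level minus own mean (log2) on each of the 6 arrays for miR-212-3p and the 3 tested miRNAs with the nearest profiles, a point per array. All 4 lie above 0 on the controls and below 0 on both IL-6 arrays, and IL-6 array 1 is the lowest for each. The 3 were picked for this likeness.

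Other miRNAs that answer to cyclic AMP or to cold in fat or endocrine cells were described from a list of 9 hairpins with 19 entries on the array, 11 of them tested. None passed the adjusted threshold, and 3 were lower and 0 higher at an unadjusted p under 0.05, beside 12% lower among all tested miRNAs. Differences were below 0 for 9 of 11, beside 54.5% of all tested. The median was -0.17, beside -0.02 over all tested miRNAs. The list does not state in which direction each miRNA answers, so the shared sign was not read as an answer to cyclic AMP. It holds both arms of miR-21a and of miR-378a, so its entries are not independent. The fat cell and fibroblast list, which shares miR-378a, leaned the same way, with 8 of 9 below 0 and a median of -0.11. One of the 11, miR-30c-1-3p, sat at the floor on all 6 arrays and has no measured difference, though it is counted in these values. miR-21a-5p, raised by luteinising hormone in granulosa cells, differed by -0.15 ± 0.07 SE from 13.04 ± 0.07 (log2, SD, n = 4) in controls. miR-27a-3p, a brake on adipogenesis, differed by -0.17 ± 0.08 SE, and miR-378a-3p by -0.19 ± 0.07 SE. Both IL-6 arrays lay below the controls for these 3, as for 21.7% of all tested miRNAs. miR-30b-5p, of a family that favours brown fat genes, differed by -0.09 ± 0.12 SE with overlapping groups.

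Of miRNAs reported to target Creb1, the gene of CREB, 2 of 8 entries were tested. miR-34b-5p measured 6.55 ± 0.09 (log2, SD, n = 4) in controls and 6.52 ± 0.06 (SD, n = 2) with IL-6, and miR-134-5p 3.60 ± 0.15 and 3.48 ± 0.04, with overlapping groups for both. All entries of miR-9 and miR-124, which are neural, were among the 6 detected on no array. Of 8 entries for inflammation and STAT3 or NF-kB signalling, 4 were tested and 0 passed, beside 0.334% of all tested miRNAs. The median of the 4 was -0.08, beside -0.02 over all tested. Of these pathways, STAT3 lies directly downstream of IL-6. miR-155-5p differed by -0.35 ± 0.08 SE (limma adjusted p = 0.0859). Both IL-6 arrays lay below the controls for it, as for 21.7% of all tested miRNAs. miR-146b-5p differed by -0.01 ± 0.11 SE and miR-21a-3p, the second strand of miR-21a, by 0.04 ± 0.14 SE. The groups overlapped for miR-146b-5p and for miR-21a-3p. The fourth, miR-21a-5p, is given above.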

How the data were processed

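The intensity values were made by the authors with Agilent Feature Extraction 10.10.1.1, per the submitters' processing notes, with a fitted background subtracted per the file headers, which leaves some below 0. Deposited flags per spot, on no numeric scale, mark spots as uneven, outlying, positive or well above background. The deposited series table holds the scanner's total intensity per probe.

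Uneven and outlying spots and 2164 control spots were left out, kept spots were averaged per probe, and arrays were scaled to a common 75th percentile over the 502 probes detected on all arrays. Probes of a miRNA were averaged, values under 6.25 were set to that floor, and log2 was taken. The 299 miRNAs detected on all 4 controls or both IL-6 arrays were tested with limma 3.58.1 in R 4.3.3 (eBayes with mean trend, two-sided, Benjamini-Hochberg, threshold 0.05). The fit was run on simulated data with shifts larger than the difference of miR-212-3p and no effects shared across an array. That run is no check of the test at a difference of this size. The ratio and the correlation of miR-132-3p and miR-212-3p were not computed, since miR-132-3p was not detected. Alternatives varied background, scaling, filter, probe summary, source, variance model, blocks and arrays. All members are named, the 3 nearest profiles and, per list, the tested miRNAs with the highest signal. Named after their values were seen were miR-128-3p, miR-143-3p, miR-30c-1-3p, miR-219-5p, miR-205-5p, miR-192-5p and miR-194-5p. The members and lists were chosen with earlier results of these data known.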

Additional observations from a re-analysis of the deposited data

Results flagged for a closer look

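For miR-212-5p, the scaled signal on control 1 (-1.24 units) stood apart from the other controls (-0.322, -0.188 and -0.155 units), with a gap of 0.846 of the whole range. All of these values lie at or below background. Chance marks about 1 in 20 groups of 4 in this way, and this was the single one of 12 groups of values examined. The scanner software's own detection call, which the comparison did not use, called miR-132-3p on IL-6 array 1 alone, with a total signal of 2.89 units. The software writes 0.1 for a miRNA that it does not call, as it did for miR-132-3p on the other 5 arrays.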

How the results depend on the processing

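Of 20 alternatives, 18 kept miR-212-3p below 0 and none brought it past the threshold (limma adjusted p between 0.0648 and 1). It was above 0 without scaling (0.051) and with hybridisation spike-in scaling (0.060). Both spike-in scalings were chosen after seeing the data. Leaving out each array in turn, with scaling and tested miRNAs kept, gave -0.27 to -0.21. That sign was fixed, since both IL-6 arrays lay below every control. Fits without an IL-6 array assume that the lone array varies like the controls. A changed detection filter or no mean trend reused the same levels and returned the same -0.24. The count of 18 was thus partly fixed in advance and is no measure of support.

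The number of miRNAs past the threshold, 1 as reported (limma, 68 at an unadjusted p under 0.05), was 34 without scaling, 31 and 23 with hybridisation and labelling spike-in scaling, 3 with total gene signal, and 2 with scaling over all mouse probes, no detection filter, the brightest probe or the series table. It was 0 with normexp background (30 unadjusted), detection on all 6 arrays (56), slide column as a block (50) and replicate block (50). Leaving out arrays gave 1 to 31, with 31 when control 4 was dropped, 5 when IL-6 array 1 was, and 3 when IL-6 array 2 was. Unadjusted calls were 32 higher and 36 lower as reported, 50 higher and 0 lower without scaling, and 31 higher and 69 lower where all mouse probes set the scale, which put miR-212-3p at -0.35. Total gene signal and the series table both put it at -0.15 (limma adjusted p = 0.257 and 0.279). Unadjusted calls were 47 and 0 higher and lower with hybridisation spike-in scaling, 42 and 0 with labelling spike-in scaling, 27 and 52 with quantile scaling, 6 and 24 with normexp, and 52 and 9 with total gene signal.

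With the replicate number as a block, miR-212-3p differed by -0.22 ± 0.08 SE (adjusted p = 0.346). Deviations from group means correlated at 0.06 for arrays numbered 1 and -0.34 for those numbered 2, over all tested miRNAs. With 2 IL-6 arrays their deviations mirror each other by construction, so these values cannot tell whether the numbers pair the arrays. Arrays in the same slide column correlated at 0.41 (control 3 with IL-6 array 1) and 0.51 (control 4 with IL-6 array 2). Control 2 and IL-6 array 1, which lay in different columns, correlated at 0.34. The same mirroring holds for these values, so they cannot tell whether slide columns pair the arrays. With slide column as a block miR-212-3p differed by -0.26 ± 0.07 SE (limma adjusted p = 0.238). The alternatives for the ratio of miR-132-3p to miR-212-3p were not run, since miR-132-3p was below the floor. Signal over background limits miR-132-3p and both 5p strands to a bound.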
